A study of Mus musculus with 12 samples.

Results

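The 33 genes described here carry glucose from uptake to lactate or belong to the hypoxia response, and were taken as the rows of the deposited count table whose gene symbol is a listed member. All 33 were among the 37775 genes of the table and among the 22118 genes with enough counts to be tested. They comprise 18 glycolysis genes, from the glucose transporter Slc2a1 to the lactate exporter Slc16a3, and 15 genes of the hypoxia response, namely Hif1a, its hydroxylases Egln1 and Egln3 and 12 genes known as targets of HIF-1. mRNA was captured with oligo(dT) and sequenced in bulk from 4 fractions of monocytes and macrophages, with 3 libraries per fraction and 12 in all. The cells were sorted by FACS on day 5 from the ear skin of WT BALB/c mice with IgE-CAI, an IgE-dependent allergic inflammation of the skin that basophils drive. Every fraction came from mice that had received 300 μg of anti-TNP IgE into a vein and, on the next day, 10 μg of TNP-conjugated ovalbumin into the ear skin, and no fraction from untreated skin was compared. The fractions were Ly6ChiPD-L2lo classical monocytes, Ly6ChiPD-L2hi early CMDMs (classical monocyte-derived macrophages), Ly6CloPD-L2hi late CMDMs and Ly6CloPD-L2lo resident-like macrophages. The labels number the libraries of a fraction but do not say whether they came from separate mice, so that the p-values measure the spread between these libraries, which may be technical. Each fraction is a population defined by 2 surface proteins and can hold several cell types.

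Glycolysis splits glucose into pyruvate in the cytosol and yields ATP without oxygen. Hexokinase, phosphofructokinase and pyruvate kinase catalyse its irreversible steps, and lactate dehydrogenase returns the NAD+ that it uses. HIF-1, a dimer of HIF-1α and ARNT, binds DNA at the core letters ACGTG or GCGTG and raises the transcription of glucose transporters, glycolytic enzymes and angiogenic factors. At normal oxygen the prolyl hydroxylases (the Egln genes) mark HIF-1α for degradation, and some of them are themselves targets of HIF-1. In macrophages, inflammatory activation is known for a rise of glycolysis and of HIF-1α, whereas activation by IL-4 is known for a reliance on oxidative metabolism. HIF-1 acts largely through the stability of its protein, which mRNA counts do not measure.

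Because HIF-1 binding is a known property of many members, the start regions of 4 hypoxia response genes are shown, chosen as the HIF-1 targets with the largest fold changes that hold the core motif in the window. Each window runs from 250 bases before to 50 bases after a transcription start given by RefSeq on build GRCm38.p6, is 300 bases long and is written 5′ to 3′ on the strand of the gene. Capitals mark ACGTG and GCGTG on either strand, which read CACGT and CACGC on the other strand, and ACGTG and CACGT overlap in the palindrome CACGTG. Adm encodes the vasodilator peptide adrenomedullin, and its window chr7:110627407-110627706 on the plus strand held the motif at 2 positions. Vegfa encodes the main angiogenic growth factor, and the window of a start inside the gene, chr17:46025114-46025413 on the minus strand, held 2, whereas the window of its first start held 0. Pdk1 encodes the kinase that keeps pyruvate from the mitochondrial dehydrogenase, and its window chr2:71872974-71873273 on the plus strand held 2, whereas its other window held 0. Bnip3 encodes a mitophagy receptor, and its window chr7:138909457-138909756 on the minus strand held 5.
Adm: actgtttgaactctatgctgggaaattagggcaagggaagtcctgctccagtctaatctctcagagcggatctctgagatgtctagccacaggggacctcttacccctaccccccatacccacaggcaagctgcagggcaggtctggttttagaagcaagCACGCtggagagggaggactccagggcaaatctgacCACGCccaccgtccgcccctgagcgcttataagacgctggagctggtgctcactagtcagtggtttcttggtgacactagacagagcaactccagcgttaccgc
Vegfa: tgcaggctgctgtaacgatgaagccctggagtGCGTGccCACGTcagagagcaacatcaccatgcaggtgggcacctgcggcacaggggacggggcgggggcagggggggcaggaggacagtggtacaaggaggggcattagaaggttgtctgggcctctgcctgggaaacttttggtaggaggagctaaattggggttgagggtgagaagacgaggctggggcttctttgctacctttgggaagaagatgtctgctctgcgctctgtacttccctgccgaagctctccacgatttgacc
Pdk1: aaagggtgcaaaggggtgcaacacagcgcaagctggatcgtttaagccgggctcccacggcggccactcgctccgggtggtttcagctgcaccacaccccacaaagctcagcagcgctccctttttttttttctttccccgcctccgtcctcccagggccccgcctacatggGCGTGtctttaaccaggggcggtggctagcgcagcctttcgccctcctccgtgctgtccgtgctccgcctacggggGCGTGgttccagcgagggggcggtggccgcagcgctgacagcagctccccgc
Bnip3: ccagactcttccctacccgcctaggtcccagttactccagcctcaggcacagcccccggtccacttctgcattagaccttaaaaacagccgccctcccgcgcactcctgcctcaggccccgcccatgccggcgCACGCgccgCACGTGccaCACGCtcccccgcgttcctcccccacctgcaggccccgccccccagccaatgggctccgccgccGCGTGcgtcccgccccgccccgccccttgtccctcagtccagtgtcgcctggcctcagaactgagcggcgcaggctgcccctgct

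RefSeq gave 50 such windows for 32 of the 33 members. The motif was in 39 of these 50 windows, or 78.0% (95% exact Clopper-Pearson interval 64.0% to 88.5%), and in at least 1 window of 30 of the 32 genes. It was in 43.8% of the 32851 windows of all 27025 genes of the same table. Of the HIF-1 targets, 11 had a window, and 13 of their 18 windows held it (72.2%, interval 46.5% to 90.3%). Windows of one gene overlap in part, so they are not independent, and a match is a run of letters and not a bound site. Both core motifs hold the letters CG, and the windows of all genes were not matched to the members for base composition or expression. What the difference between these shares reflects was not tested. Members with the motif in at least 1 window differed in the fraction in which they were highest, as the values of Adm, Vegfa, Pdk1 and Bnip3 below show. For Vegfa that window was the one of a start inside the gene.

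Total counts per library lay between 12537178 and 19844113, and 3 counts, the limit that a count of 0 allows, corresponded to 0.151 to 0.239 CPM, in which the counts of a library are scaled to its size. Reads are not independent molecules, so this limit covers counting error only. Levels are given as CPM scaled by TMM, a method that takes most genes as equal between libraries, and errors are SD over 3 libraries. Differences were tested in 6 pairwise comparisons of fractions with the quasi-likelihood test of edgeR, and a gene was called when its p-value, adjusted by Benjamini-Hochberg over all 22118 genes, was under 0.05. The biological coefficient of variation of these fits was 13.2%. The 10 monocyte and macrophage markers, Csf1r, Adgre1 and Lyz2 among them, were detected in every fraction. Their summed level lay at 7680 to 9610 CPM in classical monocytes, 3240 to 4710 in early CMDMs, 8180 to 9100 in late CMDMs and 10400 to 11400 in resident-like macrophages.

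Markers of other cells of the skin differed between fractions together with some members. The summed level of 16 keratinocyte markers was 25400 to 40600 CPM in early CMDMs and 2750 to 5980 in all the other libraries, and early CMDMs exceeded classical monocytes in all 16. The summed level of 10 fibroblast markers was 3550 to 6190 CPM in classical monocytes and 3270 to 4580 in early CMDMs, but 553 to 598 in late CMDMs and 312 to 407 in resident-like macrophages. T cell markers (8) summed to 196 to 257 CPM in classical monocytes and to 27.1 to 61.8 elsewhere. Dendritic and Langerhans cell markers (8) summed to 961 to 1270 CPM in resident-like macrophages and to 170 to 275 elsewhere, and basophil and mast cell markers (8) to 106 to 203 and 15.6 to 86.9. Single markers differed: Cd207 and Epcam were highest in resident-like macrophages, with means of 819 and 219 CPM. Flt3 and Clec9a were highest in classical monocytes, at 68.9 and 8.37 CPM beside 27 and 0.439 in resident-like macrophages. The basophil marker Mcpt8 was at 0.353 CPM in resident-like macrophages and 0.422 in classical monocytes. Endothelial markers (8) summed to 159 to 192 CPM in both CMDM fractions and to 62.2 to 106 in the other fractions, and skeletal muscle markers (8) to 42.2 to 107 over all libraries. Neutrophil markers (8) summed to 84.6 to 175 CPM, with the defining marker Ly6g at 0 in all 9 libraries outside the classical monocytes, and no other marker of these lists was at 0 throughout a fraction. The part of these cells in the differences between members was not tested. In bulk RNA, fewer cells of a type and less RNA per cell cannot be told apart.

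The level of all leukocyte RNA also differed. The summed level of 10 genes that leukocytes share (Ptprc, Laptm5, Cd53, Coro1a, Lcp1, Arhgdib, Ptpn6, Rac2, Was and Vav1) was 4280 to 4600 CPM in classical monocytes, 1090 to 1750 in early CMDMs, 2400 to 2760 in late CMDMs and 4000 to 4120 in resident-like macrophages. Scaling the libraries by these 10 genes instead of by TMM moved the median log2 fold change of all genes from -0.013 to 1.715 in early CMDMs against classical monocytes and from 0.021 to -0.941 in late against early CMDMs. In the first, 20071 of the 22118 genes were then called higher and 466 lower, and in the second 153 and 16089. In resident-like macrophages against late CMDMs these counts were 608 and 11764. Counts of members or lists under leukocyte scaling are to be read beside such counts of all genes. The direction of a member on the TMM scale is therefore relative to most other RNA of the same library, and the values under leukocyte scaling are given beside those that turn.

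One library stood apart for these genes. The third classical monocyte library held the highest of the 3 values of its fraction for 30 of the 33 members, or 90.9%, against 36.6% of all genes tested. The median log2 ratio of the members to the mean of the other 2 libraries was 0.46 in this library, and that of all genes was -0.01. The members together took 0.483% of its counts and 0.317% to 0.352% of those of the other 11 libraries. Counts against classical monocytes, and the values of part of the members, are therefore also given without it. Of 47 single differences over all comparisons, 7 lost their call without it and 0 turned.

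Across the 4 fractions, 12 of the 33 members had their highest mean level in classical monocytes, 9 in early CMDMs, 7 in resident-like macrophages and 5 in late CMDMs. Every library of the highest fraction lay above every other library for 5, 6, 2 and 3 of these, respectively. The same counts over all genes were not made, so these describe the members only. The members highest in classical monocytes were Slc2a1, Pfkl, Gapdh, Pgk1, Eno1, Pkm, Ldha, Slc16a3, Hif1a, Vegfa, Ddit4 and Mxi1. Those highest in early CMDMs were Hk1, Pfkm, Pgam1, Egln1, Egln3, Adm, Ankrd37, Pdk1 and Higd1a, those in late CMDMs Hk3, Pfkfb3, Tpi1, Bnip3 and Hilpda, and those in resident-like macrophages Hk2, Gpi1, Pfkp, Aldoa, Ndrg1, P4ha1 and Kdm3a. The ratio of the highest to the lowest fraction mean ran from 1.04 for Aldoa and Kdm3a to 5.85 for Egln3. On a scale per transcript length (TPM, from the median length of a gene's transcripts), the 4 most abundant members in classical monocytes were Pkm, Ndrg1, Aldoa and Ldha with mean levels of 706, 522, 458 and 433, and Pfkm was the least abundant with 1.90. This order depends on the length used. For Ndrg1 the median length was 591 bases and the longest transcript 4049, and for Pfkm 2798 and 2879. An order by the longest transcript is not given here.

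**Figure D1:**
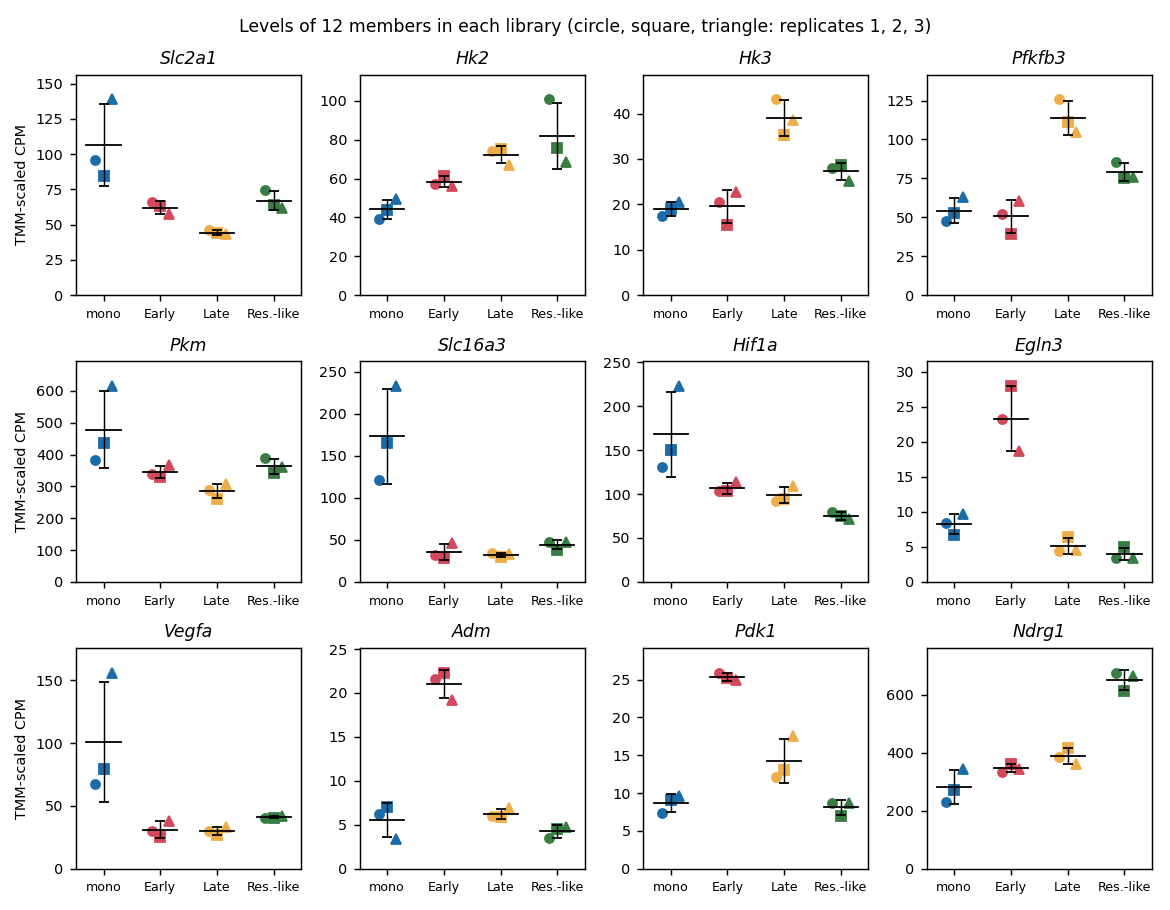
TMM-scaled CPM (linear axes from 0) of 12 members in each library of the 4 fractions, with the mean (line) and SD (bar) of 3 libraries. Slc16a3 and Vegfa lie higher in all 3 classical monocyte libraries than in the other fractions, whereas Egln3, Adm and Pdk1 are highest in early CMDMs and Ndrg1 in resident-like macrophages.

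Against classical monocytes, early CMDMs had 8 members called higher and 11 called lower. These are 24.2% and 33.3% of the members, and over all genes tested the shares were 24.2% higher and 20.6% lower. The median log2 fold change of the members was -0.10, beside -0.013 for all genes. Of the 18 glycolysis members, 3 were higher and 7 lower, whereas the 12 HIF-1 targets split into 3 higher (Adm, Pdk1 and Higd1a) and 3 lower (Vegfa, Hilpda and P4ha1). Without the third classical monocyte library the counts were 12 higher and 8 lower, beside 5010 and 4088 of 22582 genes. Under leukocyte scaling they were 31 higher and 1 lower, the last being Slc16a3, beside 20071 and 466 of the 22118 genes.

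From early to late CMDMs, 4 members were higher (Hk3, Pfkfb3, Bnip3 and Hilpda) and 6 lower (Slc2a1, Hk1, Egln3, Adm, Pdk1 and Higd1a). These shares of 12.1% and 18.2% stand beside 14.4% and 17.5% of all genes. Leukocyte scaling gave 0 higher and 29 lower, beside 153 and 16089 of all 22118 genes. Leaving out the second early CMDM library gave 3 lower, beside 2986 of 22743 genes. Against classical monocytes, late CMDMs had 7 members higher and 12 lower (21.2% and 36.4%), beside 18.1% and 17.5% of all genes. These counts were 8 and 7 without the third classical monocyte library, beside 3720 and 3583 of 22582 genes. Under leukocyte scaling they were 20 and 3, beside 13590 and 1141 of 22118 genes. Leaving out the first late CMDM library also gave 7 lower, beside 3333 of 22778 genes.

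Resident-like macrophages differed from late CMDMs in 5 members higher (Slc2a1, Gpi1, Pfkp, Ndrg1 and P4ha1) and 5 called lower (Hk3, Pfkfb3, Bnip3, Pdk1 and Higd1a), or 15.2% each, beside 12.7% and 15.4% of all genes. Leukocyte scaling gave 0 higher and 24 lower, beside 608 and 11764 of all 22118 genes. Library size alone gave 3 and 8, beside 1858 and 4780. Leaving out the third late CMDM library gave 3 higher, beside 2089 of 22800 genes. Against classical monocytes, 4 members were higher and 7 lower in resident-like macrophages (12.1% and 21.2%), beside 10.8% and 12.9%. Scaling by library size alone gave 2 higher and 13 lower there, beside 1440 and 4531 of 22118 genes. With leukocyte scaling 4 were lower, beside 1673 of all genes. The counts without the third classical monocyte library were 5 and 7, beside 2443 and 2775 of 22582 genes. Against early CMDMs, 8 members were higher and 7 lower (24.2% and 21.2%), beside 21.4% and 25.1%. These became 0 and 33 under leukocyte scaling, beside 302 and 19839 of 22118 genes. Library size alone gave 11 lower, beside 7081 of all genes. The 3 libraries of a fraction enter several comparisons, so the comparisons share samples.

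**Figure D2:**
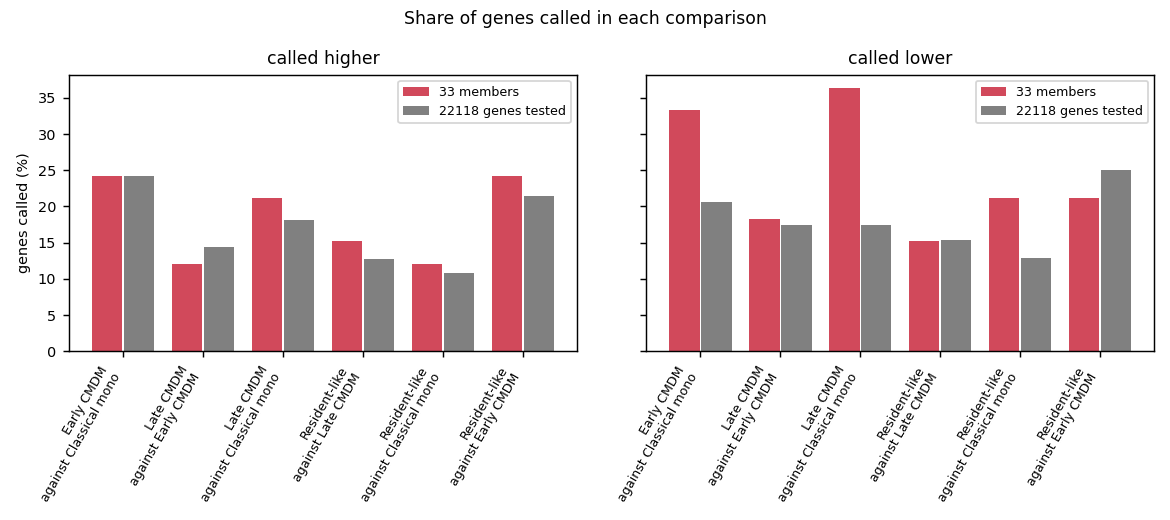
Percent of the 33 members (red) and of the 22118 genes tested (grey) that were called higher (left) or lower (right) in each of the 6 comparisons, on the TMM scale. The red bar exceeds the grey one most for genes called lower in CMDMs than in classical monocytes. The shares were 33.3% against 20.6% in early CMDMs and 36.4% against 17.5% in late CMDMs. Under leukocyte scaling 1 and 3 of the 33 members were called lower there, beside 466 and 1141 of the 22118 genes.

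Slc2a1, which encodes the glucose transporter GLUT1, was highest in classical monocytes and lowest in late CMDMs. Its level was 95.6, 84.5 and 139 CPM in the 3 classical monocyte libraries, 66.1, 62.8 and 57.3 in early CMDMs, 46.0, 44 and 43.0 in late CMDMs and 74.5, 63.8 and 62.0 in resident-like macrophages. The classical monocyte libraries lay above all others and the late CMDM libraries below all others. On the log2 scale Slc2a1 fell by 0.78 ± 0.15 (SE) from classical monocytes to early CMDMs (adjusted p = 0.000408) and by 0.48 ± 0.15 from early to late CMDMs (adjusted p = 0.0198), and was higher by 0.59 ± 0.15 in resident-like macrophages than in late CMDMs (adjusted p = 0.00715). The first of these was -0.54 without the third classical monocyte library. Under leukocyte scaling it turned to 0.99, and the last turned to -0.0521. The call from early to late CMDMs was lost when any 1 of 4 libraries (the first or second of early CMDMs, the second or the third of late CMDMs) was left out, with values between -0.54 and -0.44 over all libraries left out in turn.

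The 3 hexokinases, which trap glucose as glucose 6-phosphate, did not share a pattern. Hk2, the inducible enzyme of the outer mitochondrial membrane, stood at 39.3, 43.6 and 49.4 CPM in classical monocytes, 57.0, 61.5 and 56.4 in early CMDMs, 74.4, 75.0 and 67.2 in late CMDMs and 101, 75.8 and 68.7 in resident-like macrophages. The classical monocyte libraries lay below all others, and the late CMDM and resident-like libraries overlapped. Hk2 was higher on the log2 scale by 0.71 ± 0.13 in late CMDMs (adjusted p = 0.00042) and by 0.89 ± 0.13 in resident-like macrophages (adjusted p = 7.36e-05) than in classical monocytes.

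Hk3, a hexokinase of myeloid cells, stood at 17.4, 18.9 and 20.5 CPM in classical monocytes, 20.5, 15.5 and 22.7 in early CMDMs, 43.2, 35.3 and 38.5 in late CMDMs and 28.1, 28.6 and 25.1 in resident-like macrophages. Every late CMDM library lay above every other library, and classical monocytes and early CMDMs overlapped. The log2 difference of late from early CMDMs was 0.99 ± 0.13 (adjusted p = 3.18e-05), and resident-like macrophages were lower than late CMDMs by -0.51 ± 0.13 (adjusted p = 0.00804). Hk1, the widely expressed enzyme, was highest in early CMDMs (38.8 ± 6.20 CPM) and lay between 27.1 and 30.4 CPM on average in the other fractions. Its log2 difference of early CMDMs from classical monocytes was 0.52 ± 0.12 (adjusted p = 0.00272).

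Middle enzymes turn glucose 6-phosphate into triose phosphates, and their control point is phosphofructokinase. Pfkfb3 encodes the enzyme that makes fructose 2,6-bisphosphate, the activator of phosphofructokinase, and stood at 47.3, 52.6 and 62.8 CPM in classical monocytes, 52.0, 39.5 and 60.6 in early CMDMs, 126, 111 and 105 in late CMDMs and 85.7, 75.2 and 76.0 in resident-like macrophages. All 3 libraries of late CMDMs lay above the rest and the resident-like libraries in between, a pattern like that of Hk3. Late CMDMs exceeded early CMDMs by 1.17 ± 0.14 on the log2 scale (adjusted p = 1.3e-05), and resident-like macrophages were below late CMDMs with a log2 difference of -0.53 ± 0.14 (adjusted p = 0.0106), a call that was lost without the first late CMDM library. Under leukocyte scaling the log2 difference of late from early CMDMs was 0.23 for Pfkfb3 and 0.05 for Hk3, with adjusted p = 0.188 and 0.784.

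Pfkp, the platelet isoform of phosphofructokinase, stood at 118, 123 and 136 CPM in classical monocytes, 95.6, 101 and 99.5 in early CMDMs, 87.1, 98.7 and 84.9 in late CMDMs and 161, 144 and 139 in resident-like macrophages. The resident-like libraries were the highest of all, and early and late CMDM libraries overlapped. Resident-like macrophages exceeded late CMDMs by 0.71 ± 0.096 on the log2 scale (adjusted p = 4.24e-05), and early CMDMs lay below classical monocytes with a difference of -0.35 ± 0.096 (adjusted p = 0.00719). Under leukocyte scaling the first was 0.07 (adjusted p = 0.742) and the second turned to 1.40.

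The muscle isoform Pfkm was low throughout, at 4.74, 4.89 and 4.91 CPM in classical monocytes, 12, 9.67 and 8.10 in early CMDMs, 7.81, 7.29 and 7.75 in late CMDMs and 5.93, 4.37 and 6.71 in resident-like macrophages. The early CMDM libraries lay above all others. Its log2 difference of early CMDMs from classical monocytes was 1.03 ± 0.18 (adjusted p = 0.000159) and that of resident-like macrophages from early CMDMs was -0.81 ± 0.17 (adjusted p = 0.0012). The liver isoform Pfkl stood at 20.2, 17.7 and 35.3 CPM in classical monocytes, 19.9, 20.2 and 22.5 in early CMDMs, 17.7, 18.7 and 16.2 in late CMDMs and 16.9, 15.0 and 17.0 in resident-like macrophages. Its call as lower in resident-like macrophages than in classical monocytes (-0.58 ± 0.19, adjusted p = 0.0413) rested on the third classical monocyte library, without which the log2 difference was -0.21 (adjusted p = 0.267), and was also lost on leaving out any 1 of 9 other libraries.

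Gpi1, the glucose phosphate isomerase, was at 178 ± 10.8 CPM in resident-like macrophages and at 142 ± 6.93 in early CMDMs, a log2 difference of 0.32 ± 0.089 (adjusted p = 0.00716) that turned to -1.30 under leukocyte scaling. Aldolase A (Aldoa) and triose phosphate isomerase (Tpi1) were called in none of the 6 comparisons. The fraction means of Aldoa lay between 367 and 383 CPM and those of Tpi1 between 133 and 152, with SDs of up to 73.2 and 34.2 in classical monocytes. Of the 7 middle enzymes, 1 was higher (Pfkm) and 1 lower (Pfkp) in early CMDMs than in classical monocytes, or 14.3% each, beside 24.2% and 20.6% of all genes.

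Isoenzymes of a step were also compared as shares of that step, from counts per kilobase of transcript. Pfkp made up the largest share of phosphofructokinase in every fraction, with 79.2% ± 4.85 in classical monocytes, 76.2% ± 0.917 in early CMDMs, 77.9% ± 0.709 in late CMDMs and a highest share, 86.3% ± 1.16, in resident-like macrophages. These shares use the median transcript length of a gene, and with the longest transcript they were 64.3%, 55.7%, 58.5% and 72.9%. The share of Hk3 among hexokinases was highest in late CMDMs under both lengths, at 13.6% ± 1.53 and 38.1% ± 3.03, beside 6.84% ± 1.88 and 23.7% ± 5.01 in early CMDMs. The order of Hk1 and Hk2 depended on the length, since in classical monocytes Hk1 took 55.6% and Hk2 35.5% with the median length but 31.4% and 39.5% with the longest. Ldha took 88.2% to 94.4% of lactate dehydrogenase and the share of Ldhb was highest in late CMDMs, at 11.8% ± 2.54 beside 5.60% ± 0.519 in resident-like macrophages, with the median length. Shares within a library do not depend on the scaling, and they were not tested.

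**Figure D3:**
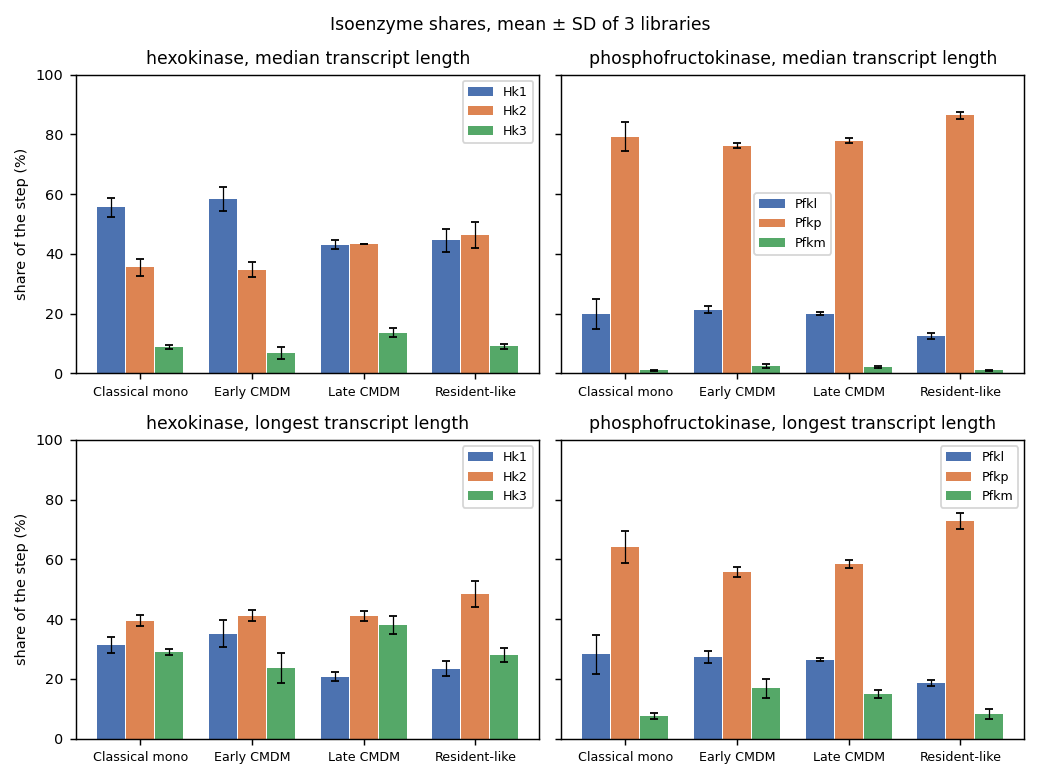
Percent share of each isoenzyme in its step (bars, mean; error bars, SD of 3 libraries) in the 4 fractions, with the median (top) or longest (bottom) transcript length of each gene. Pfkp is the largest share of phosphofructokinase in all fractions, and Hk3 has its largest share in late CMDMs in both rows.

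The lower enzymes turn triose phosphates into pyruvate, and 4 of these 5 (Gapdh, Pgk1, Eno1 and Pkm) were called lower in early and in late CMDMs than in classical monocytes, beside 20.6% and 17.5% of all genes. All 8 of these log2 differences were negative on the TMM scale and positive under leukocyte scaling. In no other pair of fractions was a lower enzyme called, except for Pgk1 in resident-like macrophages against classical monocytes. Pkm, the pyruvate kinase of macrophages, stood at 383, 437 and 616 CPM in classical monocytes, 339, 330 and 366 in early CMDMs, 289, 261 and 307 in late CMDMs and 389, 342 and 361 in resident-like macrophages. The classical monocyte libraries lay above those of both CMDM fractions, with the third far above the first and second. The log2 difference from classical monocytes was -0.47 ± 0.14 in early CMDMs (adjusted p = 0.0121) and -0.74 ± 0.14 in late CMDMs (adjusted p = 0.000614). Without the third classical monocyte library these were -0.25 (adjusted p = 0.0747) and -0.52 (adjusted p = 0.00114), and under leukocyte scaling 1.27 and 0.0261.

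Phosphoglycerate kinase (Pgk1), the first step that returns ATP, stood at 75.9, 89.0 and 105 CPM in classical monocytes, 67.0, 69.8 and 68.1 in early CMDMs, 60.6, 70.0 and 67.2 in late CMDMs and 63.1, 61.4 and 63.3 in resident-like macrophages. The classical monocyte libraries lay above all others, and the other fractions lay close together. The log2 difference from classical monocytes was -0.40 ± 0.11 in early CMDMs (adjusted p = 0.00641) and -0.52 ± 0.11 in resident-like macrophages (adjusted p = 0.00168). Without the third classical monocyte library they were -0.27 (adjusted p = 0.0365) and -0.40 (adjusted p = 0.00652), and under leukocyte scaling the first turned to 1.35 and the second was -0.39 (adjusted p = 0.149).

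Gapdh stood at 161, 155 and 234 CPM in classical monocytes, 121, 127 and 142 in early CMDMs, 132, 124 and 162 in late CMDMs and 154, 156 and 170 in resident-like macrophages. Enolase 1 (Eno1) stood at 170, 169 and 267 CPM in classical monocytes, 148, 151 and 163 in early CMDMs, 141, 134 and 160 in late CMDMs and 163, 147 and 172 in resident-like macrophages. In both genes the first and second classical monocyte libraries lay near the resident-like libraries and the third lay above all. Gapdh was lower in early CMDMs than in classical monocytes (-0.50 ± 0.15, adjusted p = 0.0108) and Eno1 in late CMDMs (-0.47 ± 0.15, adjusted p = 0.0208). Without the third classical monocyte library the log2 differences were -0.28 (adjusted p = 0.0659) and -0.22 (adjusted p = 0.123), and under leukocyte scaling 1.24 and 0.30. The call for Gapdh was also lost without the first early CMDM library and that for Eno1 without the first or the second late CMDM library. Phosphoglycerate mutase (Pgam1) was not called in any comparison, with fraction means of 125 to 143 CPM. Processed copies of these genes took reads too: Pgk1 copies held 22.7% to 28.6% of the reads of gene and copies, those of Pgam1 25.7% to 28.2% and those of Gapdh 8.66% to 11.3%, and the counting can split reads among them.

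Slc16a3, which encodes the monocarboxylate transporter MCT4 that exports lactate, showed the largest difference of the 33 members between classical monocytes and any other fraction. The gene lies at chr11:120948480-120960868 on the plus strand of GRCm38. Its level was 121, 165 and 233 CPM in classical monocytes, 32.0, 28.7 and 46.4 in early CMDMs, 34.1, 29.2 and 33.5 in late CMDMs and 47.5, 37.7 and 47.8 in resident-like macrophages. Each classical monocyte library lay above all the others. The resident-like libraries lay above the late CMDM libraries, and the early CMDM libraries overlapped with both. The log2 difference from classical monocytes was -2.28 ± 0.22 in early CMDMs (adjusted p = 1.6e-06) and -2.43 ± 0.23 in late CMDMs (adjusted p = 1.72e-06). For resident-like macrophages it was -1.96 ± 0.22 (adjusted p = 1.41e-05). Without the third classical monocyte library the first and the last were -2.00 and -1.69. Under leukocyte scaling the 3 differences were -0.58, -1.65 and -1.83, still called. T cell markers were higher in classical monocytes too, and so were Flt3 and Clec9a of the 8 dendritic and Langerhans cell markers. Against classical monocytes, 5 of these 8 were called lower and 2 higher in early CMDMs. In late CMDMs 3 were lower and 1 higher, and in resident-like macrophages 2 were lower and 3 higher. The part of these cells was not tested.

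Lactate dehydrogenase A (Ldha) stood at 273, 259 and 345 CPM in classical monocytes, 234, 242 and 253 in early CMDMs, 242, 212 and 247 in late CMDMs and 256, 251 and 272 in resident-like macrophages. The classical monocyte and resident-like libraries overlapped. Ldha was called only in late CMDMs against classical monocytes (-0.32 ± 0.11, adjusted p = 0.0325), and this call was lost without the third classical monocyte library (-0.18, adjusted p = 0.168), without the first early CMDM library and without the first or second late CMDM library, and turned to 0.44 under leukocyte scaling. Of the pair of lactate genes, 1 was thus lower in early CMDMs and both in late CMDMs than in classical monocytes, beside 20.6% and 17.5% of all genes.

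**Figure D4:**
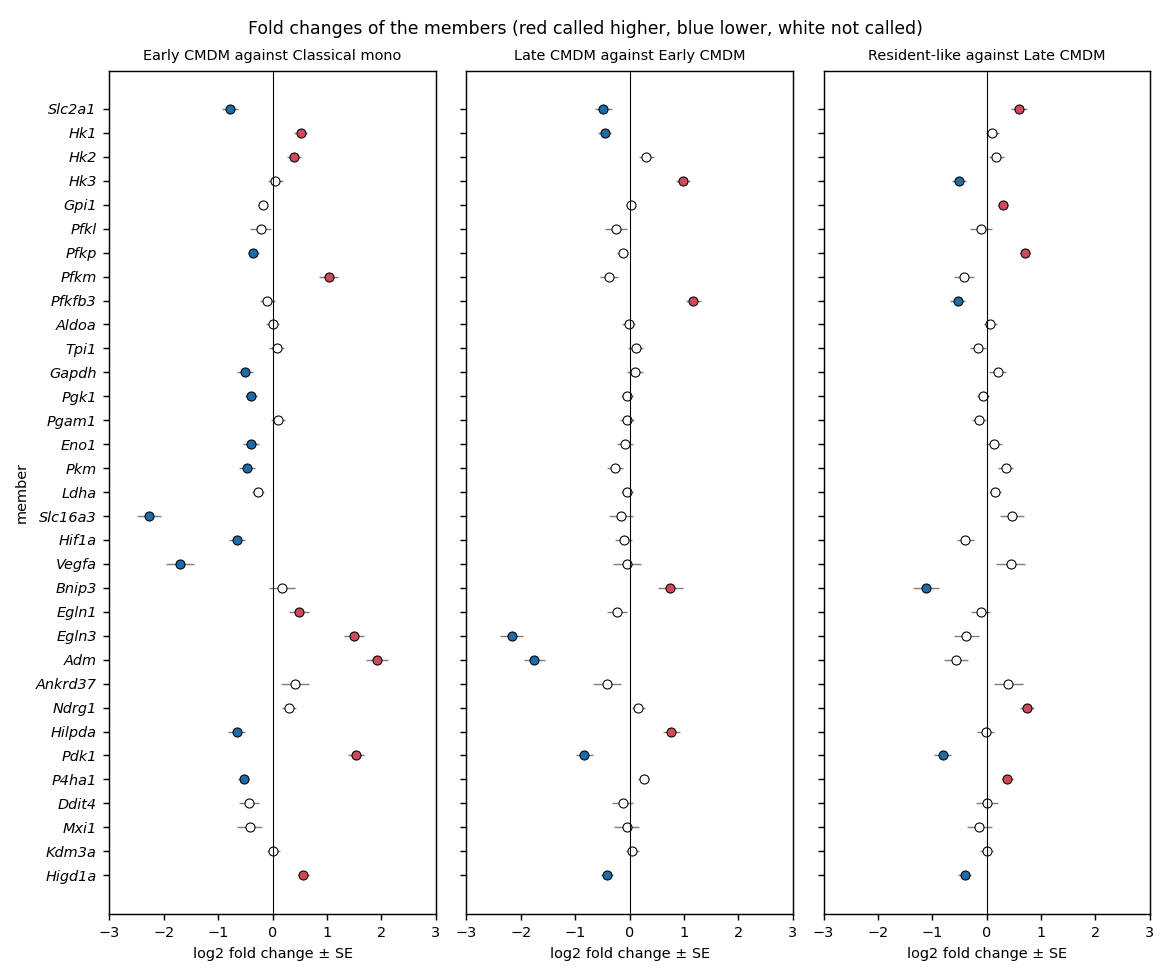
Log2 fold change (dots) and SE (bars) of the 33 members in 3 comparisons on the TMM scale, with members called higher in red, called lower in blue and not called in white. Adm, Egln3 and Pdk1 lie to the right in early CMDMs against classical monocytes and to the left in late against early CMDMs, while the lower enzymes lie left of 0 in the first panel except Pgam1, a side that changes under leukocyte scaling.

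Among HIF-1α and its hydroxylases, Hif1a and Egln3 were highest in different fractions. Hif1a stood at 131, 150 and 223 CPM in classical monocytes, 103, 103 and 114 in early CMDMs, 92.1, 94.6 and 109 in late CMDMs and 79.8, 74.6 and 71.2 in resident-like macrophages. The classical monocyte libraries were the highest and the resident-like libraries the lowest, and early and late CMDMs overlapped. On the log2 scale Hif1a was lower than in classical monocytes by -0.65 ± 0.15 in early CMDMs (adjusted p = 0.00225) and by -1.16 ± 0.15 in resident-like macrophages (adjusted p = 3.25e-05). These were -0.39 and -0.90 without the third classical monocyte library, both still called. Under leukocyte scaling the first turned to 1.09 and the second was -1.02.

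Egln3 encodes PHD3, a prolyl hydroxylase that is itself a known HIF target, and lies at chr12:54178981-54203860 on the minus strand of GRCm38. It stood at 8.37, 6.76 and 9.65 CPM in classical monocytes, 23.3, 28.0 and 18.7 in early CMDMs, 4.46, 6.44 and 4.52 in late CMDMs and 3.45, 5.03 and 3.47 in resident-like macrophages. Every early CMDM library lay above every other library by a wide margin, and late CMDM and resident-like libraries overlapped. Egln3 rose by 1.5 ± 0.19 on the log2 scale from classical monocytes to early CMDMs (adjusted p = 9.34e-06) and fell by 2.17 ± 0.21 from early to late CMDMs (adjusted p = 9.94e-07). Under leukocyte scaling these were 3.28 and -3.18. Egln1, which encodes PHD2, the main oxygen sensor, stood at 11.6, 13.2 and 11.1 CPM in classical monocytes, 18.2, 17.0 and 15.3 in early CMDMs, 11.9, 15.9 and 15.1 in late CMDMs and 18.0, 11.5 and 10.2 in resident-like macrophages. Its call as higher in early CMDMs than in classical monocytes (0.49 ± 0.18, adjusted p = 0.0385) was lost without any 1 of 4 libraries, namely the first or the third classical monocyte library or the first or second early CMDM library, with values of 0.44 to 0.57 over all libraries left out.

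Among the 12 HIF-1 targets, Adm and Pdk1 followed the pattern of Egln3. Adm stood at 6.22, 7.04 and 3.40 CPM in classical monocytes, 21.6, 22.3 and 19.2 in early CMDMs, 5.97, 5.84 and 6.94 in late CMDMs and 3.45, 4.55 and 4.77 in resident-like macrophages. The 3 early CMDM libraries lay far above the other 9. The late CMDM libraries lay above the resident-like libraries, and the classical monocyte libraries overlapped with both. The log2 difference was 1.92 ± 0.20 for early CMDMs against classical monocytes (adjusted p = 1.09e-06) and -1.75 ± 0.20 for late against early CMDMs (adjusted p = 7.51e-06), and under leukocyte scaling 3.67 and -2.74.

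Pdk1 stood at 7.39, 9.13 and 9.65 CPM in classical monocytes, 25.9, 25.2 and 24.9 in early CMDMs, 12.1, 13.1 and 17.5 in late CMDMs and 8.73, 6.98 and 8.65 in resident-like macrophages. The early CMDM libraries were the highest and the late CMDM libraries came next, above all libraries of the other fractions. Pdk1 was higher in early CMDMs than in classical monocytes by 1.54 ± 0.15 on the log2 scale (adjusted p = 5.33e-07) and lower in late than in early CMDMs with a difference of -0.83 ± 0.15 (adjusted p = 0.000409). Higd1a, a mitochondrial protein of the hypoxia response, was also highest in early CMDMs (49.6 ± 6.19 CPM, beside 37.3 ± 2.45 in late CMDMs, 33.3 ± 1.15 in classical monocytes and 28.3 ± 3.72 in resident-like macrophages). Its log2 difference was 0.57 ± 0.11 against classical monocytes (adjusted p = 0.000659), and resident-like macrophages lay below early CMDMs by -0.81 ± 0.12 (adjusted p = 2.53e-05). The keratinocyte markers were also highest in early CMDMs, and their part in the levels of Adm, Pdk1, Egln3 and Higd1a was not tested.

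Vegfa, by contrast, was highest in classical monocytes. It stood at 67.6, 79.2 and 156 CPM in classical monocytes, 29.8, 25.5 and 38.3 in early CMDMs, 30.3, 26.9 and 33.3 in late CMDMs and 40.3, 40.5 and 41.8 in resident-like macrophages. The classical monocyte libraries lay above all others although they spread widely, with the third far above the other pair. The log2 difference from classical monocytes was -1.70 ± 0.26 in early CMDMs (adjusted p = 0.000128) and -1.31 ± 0.25 in resident-like macrophages (adjusted p = 0.0019). Without the third classical monocyte library they were -1.23 and -0.84, both still called, and under leukocyte scaling the first turned to 0.0171 (adjusted p = 0.937) and the second -1.16.

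Ndrg1, a gene of cell differentiation and stress that hypoxia induces, was highest in resident-like macrophages. It stood at 230, 270 and 345 CPM in classical monocytes, 335, 362 and 345 in early CMDMs, 387, 416 and 363 in late CMDMs and 676, 612 and 664 in resident-like macrophages. The resident-like libraries lay far above the rest, and the late CMDM libraries lay just above the early CMDM libraries, with the highest early value (362) below the lowest late value (363). The log2 difference of resident-like macrophages was 1.21 ± 0.13 from classical monocytes (adjusted p = 2.49e-06) and 0.74 ± 0.13 from late CMDMs (adjusted p = 0.000334), and the second was 0.10 under leukocyte scaling (adjusted p = 0.653). Summed markers of dendritic and Langerhans cells and of basophils and mast cells were higher in the same libraries, and their part was not tested. Against classical monocytes, 3 of the 8 dendritic and Langerhans cell markers were called higher and 2 lower. Of the 7 basophil and mast cell markers tested there, 4 were higher and 0 lower.

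Bnip3 was highest in late CMDMs, at 18.2, 14.2 and 33.1 CPM in classical monocytes, 22.2, 24.4 and 27.4 in early CMDMs, 41.1, 35.7 and 48.0 in late CMDMs and 16.9, 21.2 and 19.7 in resident-like macrophages. Each late CMDM library lay above all others. The log2 difference of resident-like macrophages from late CMDMs was -1.11 ± 0.24 (adjusted p = 0.00311). That of late from early CMDMs was 0.75 ± 0.23 (adjusted p = 0.0248), turned to -0.21 under leukocyte scaling, and lost its call without any 1 of 4 libraries, the first or second early CMDM library or the first or the third late CMDM library, with values of 0.64 to 0.85 over all libraries left out.

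Hilpda, an inhibitor of lipolysis at lipid droplets, and P4ha1, a collagen prolyl hydroxylase, were lowest in early CMDMs. Hilpda stood at 159 ± 31.9 CPM there, beside 271 ± 24.1 in late CMDMs, 267 ± 28.7 in resident-like macrophages and 251 ± 50.9 in classical monocytes. Its log2 difference was -0.66 ± 0.15 in early CMDMs against classical monocytes (adjusted p = 0.00238) and 0.77 ± 0.15 in late against early CMDMs (adjusted p = 0.00116), and both turned under leukocyte scaling, to 1.04 and -0.17. P4ha1 stood at 31.9 ± 1.84 CPM in early CMDMs and at 46.1 ± 5.44, 38.3 ± 3.09 and 49.7 ± 0.909 in classical monocytes, late CMDMs and resident-like macrophages. Its log2 difference was -0.53 ± 0.10 in early CMDMs against classical monocytes (adjusted p = 0.000538) and 0.64 ± 0.10 in resident-like macrophages against early CMDMs (adjusted p = 8.91e-05), and under leukocyte scaling 1.2 and -0.96.

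The remaining 4 HIF-1 targets were called in at most 1 comparison. Ddit4, an inhibitor of mTORC1, was called only in late CMDMs against classical monocytes (-0.56 ± 0.20, adjusted p = 0.0379), where it stood at 40.3, 38.8 and 47.0 against 50.9, 46.6 and 88.1 CPM. These groups overlapped, the difference was -0.21 (adjusted p = 0.235) without the third classical monocyte library and 0.21 under leukocyte scaling, and the call was lost on leaving out any 1 of 6 libraries. The MYC antagonist Mxi1, the histone demethylase Kdm3a and the small ankyrin-repeat gene Ankrd37 were called in none of the 6 comparisons. Mxi1 stood at 169 CPM in the third classical monocyte library and at 69.1 to 93.8 in the other 11, Kdm3a had fraction means of 49.5 to 51.7 CPM and Ankrd37 of 2.58 to 3.47 CPM.

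**Figure D5:**
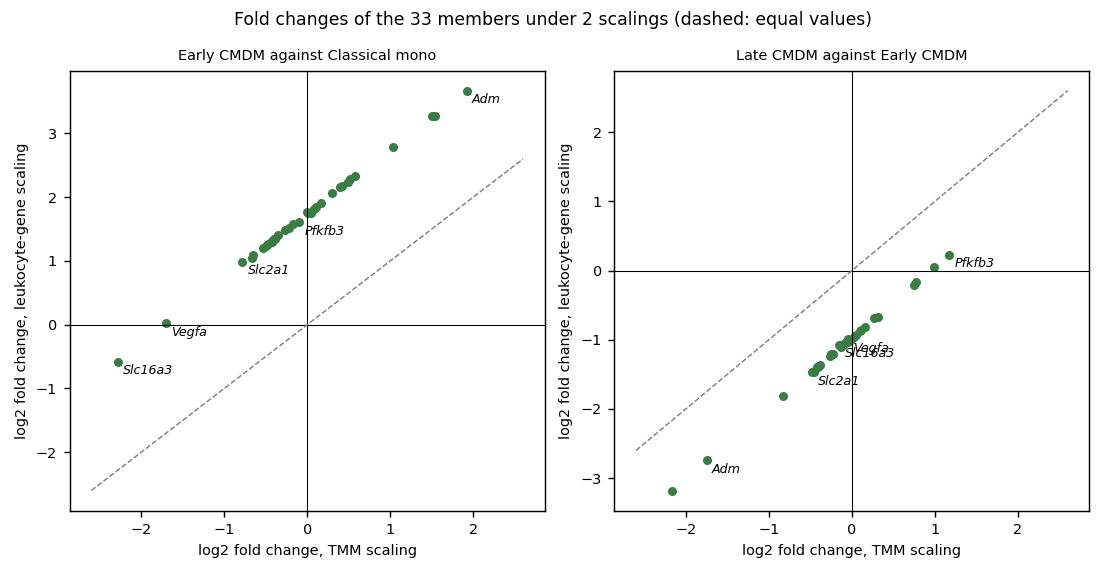
Log2 fold change of each of the 33 members under TMM scaling (horizontal axis) and under scaling by 10 leukocyte genes (vertical axis), for early CMDMs against classical monocytes (left) and late against early CMDMs (right). The points lie close to a line parallel to the dashed line of equal values, above it on the left and below it on the right, so that many members change their side of 0, and Slc16a3 is the member left below 0 in the left panel.

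Genes of the same pathways outside the 33 members were described from 4 lists. Of 35 further genes of glucose uptake, glycolysis and its branches, 32 were tested. In late against early CMDMs 14 of them were higher and 4 lower, or 43.8% and 12.5%, beside 14.4% and 17.5% of all genes, with a median log2 fold change of 0.38 beside 0.021 for all genes. In early CMDMs against classical monocytes 9 were higher and 8 lower (28.1% and 25.0%, beside 24.2% and 20.6%), and in resident-like macrophages against late CMDMs 7 were higher and 7 lower (21.9% each, beside 12.7% and 15.4%). Leukocyte scaling gave 0 and 17, 28 and 1, and 2 and 21 for the same comparisons. Slc2a6, a glucose transporter of lysosomes, fell with Slc2a1 and Slc16a3, from 105 to 136 CPM in classical monocytes to 17.3 to 22.9 in early CMDMs (log2 difference -2.6 ± 0.13, adjusted p = 4.95e-10; -0.88 under leukocyte scaling). Pdk4, a pyruvate dehydrogenase kinase that fasting induces, stood at 22.5 to 38.7 CPM in late CMDMs and at 2.32 to 4.91 in resident-like macrophages (-3.15 ± 0.38, adjusted p = 4.35e-05), and Gpd1, which links glycolysis to glycerol lipids, at 10.3 to 15.7 and 2.18 to 2.77 CPM (-2.24 ± 0.22, adjusted p = 1.69e-06).

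All 9 genes of the pentose phosphate pathway, the branch that makes NADPH and ribose, were tested. In early CMDMs 5 were lower than in classical monocytes and 0 higher, beside the 20.6% and 24.2% of all genes, at a median log2 fold change of -0.49. Transaldolase (Taldo1) stood at 227 to 288 CPM in classical monocytes and 105 to 118 in early CMDMs (log2 difference -1.19 ± 0.11, adjusted p = 2.59e-07). The lactonase Pgls was at 138 to 179 and 103 to 104 CPM (-0.61 ± 0.11, adjusted p = 0.000168) and the entry enzyme G6pdx at 57.0 to 64.3 and 36.5 to 43.0 CPM (-0.58 ± 0.10, adjusted p = 0.000201). From early to late CMDMs 2 of the 9 were higher and 0 lower (22.2% and 0%, beside 14.4% and 17.5% of all genes), among them H6pd, the enzyme of the endoplasmic reticulum (1.08 ± 0.21, adjusted p = 0.000888), which was 0.17 under leukocyte scaling (adjusted p = 0.447). These directions are on the TMM scale. Under leukocyte scaling 9 of the 9 were higher in early CMDMs than in classical monocytes, with Taldo1 at 0.54, Pgls at 1.13 and G6pdx at 1.15, and 7 were lower in late than in early CMDMs.

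Of 16 regulators of HIF, 4 were higher and 3 lower in early CMDMs than in classical monocytes, or 25.0% and 18.8%, near the 24.2% and 20.6% of all genes. Under leukocyte scaling 15 were higher and 0 lower. Vhl, the subunit that recognises hydroxylated HIF-1α, was at 27.1 to 35.5 CPM in classical monocytes and 7.67 to 10.9 in early CMDMs (log2 difference -1.66 ± 0.16, adjusted p = 3.41e-07), which was 0.08 under leukocyte scaling (adjusted p = 0.722). Its partner Elob was at 42.1 to 51.5 and 70.9 to 86.8 CPM (0.78 ± 0.15, adjusted p = 0.000547), and the ubiquitin ligase Siah1a at 13.8 to 15.9 and 23.0 to 25.3 CPM (0.71 ± 0.11, adjusted p = 7.71e-05). Epas1, which encodes HIF-2α, stood at 10.9 to 11.9 CPM in classical monocytes, 24.6 to 25.9 in early CMDMs, 24.1 to 34.2 in late CMDMs and 8.42 to 9.64 in resident-like macrophages. Resident-like macrophages were below late CMDMs by -1.67 ± 0.13 on the log2 scale (adjusted p = 1.75e-07). Early CMDMs exceeded classical monocytes in Epas1 by 1.16 ± 0.13 on the log2 scale (adjusted p = 2.08e-06), and by 2.91 under leukocyte scaling, whereas Hif1a was lower there on the TMM scale. From early to late CMDMs 3 regulators were higher and 2 lower (18.8% and 12.5%, beside 14.4% and 17.5% of all genes). In resident-like macrophages against late CMDMs 2 were higher and 4 lower (12.5% and 25.0%, beside 12.7% and 15.4%). Leukocyte scaling changed these counts to 0 and 15, and 0 and 12.

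Of 46 other known HIF-1 targets, 44 were tested. In early CMDMs against classical monocytes 20 were higher and 7 lower, or 45.5% and 15.9%, beside 24.2% and 20.6% of all genes, with a median log2 fold change of 0.33. From early to late CMDMs 13 were higher and 15 lower (29.5% and 34.1%, beside 14.4% and 17.5% of all genes), and in resident-like macrophages against late CMDMs 5 were higher and 16 lower (11.4% and 36.4%, beside 12.7% and 15.4%). Leukocyte scaling gave 42 and 0, 1 and 30, and 2 and 34 for these 3 comparisons. Higher in early CMDMs than in classical monocytes were Tmem45a, at 147 to 206 CPM against 19.2 to 35.7 (log2 difference 2.69 ± 0.21, adjusted p = 1.12e-07), and the adenylate kinase Ak4, at 6.71 to 11.6 against 1.23 to 1.87 CPM (2.42 ± 0.23, adjusted p = 3.3e-07). Ndufa4l2, a mitochondrial protein that HIF-1 induces, fell from 9.43 to 15.7 CPM in early CMDMs to 1.75 to 2.16 in late CMDMs (-2.66 ± 0.23, adjusted p = 4.29e-07). Angptl4, an inhibitor of lipoprotein lipase, was at 17.9 to 35.1 CPM in late CMDMs and 3.77 to 6.15 in resident-like macrophages (-2.32 ± 0.26, adjusted p = 1.27e-05). The 16 keratinocyte markers were higher in early CMDMs in the same libraries, and their part in the counts of this list was not tested.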

How the data were processed

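Bulk RNA-seq of 4 fractions of the IgE-CAI skin lesion, with 3 libraries each, was analysed. The deposited table holds raw counts, summed by gene symbol: per its methods, the authors used cutadapt 4.1 for trimming and Bowtie2 2.4.5 for alignment to GRCm38 reference RNA, a counting that can split the reads of near-identical copies. The study normalized and tested with TCC, which was replaced here by edgeR 4.0.16 in R 4.3.3, with TMM, filterByExpr, robust quasi-likelihood fits on all 12 libraries and 6 comparisons at an adjusted p under 0.05. SE is the log2 fold change divided by the square root of F. The number of unused columns was 0. The script was tested on simulated data. The members, lists and rules were chosen with earlier results of these data known. Members named with values per library were up to 4 per role with the largest fold change among those called, plus Slc2a1, Ldha, Hif1a and Vegfa, and other members are named to account for all 33. Further genes were up to 4 per list by the same measure. For 1 list, a gene chosen in this way is left out here. Windows came from RefSeq on GRCm38.p6, and transcript lengths, found for 96.8% of tested genes, and positions from GENCODE M21. Alternatives were RLE size factors, library size only, 10 leukocyte genes, DEGES, DESeq2 1.42.0, no filter, at least 10 counts in every library, 6 libraries alone, a replicate block, stricter thresholds, fits without genes above 1% of counts, and fits without each library in turn. Chi-square values per degree of freedom between libraries of one fraction ran from 4.24 to 21.9, so no library was taken as a repeat deposit of another; this does not show separate mice.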

Additional observations from a re-analysis of the deposited data

How the results depend on the processing

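Members called higher and lower numbered 8 and 11 in early CMDMs against classical monocytes, 4 and 6 in late against early CMDMs, 7 and 12 in late CMDMs against classical monocytes, and 5 and 5, 4 and 7, and 8 and 7 in resident-like macrophages against late CMDMs, classical monocytes and early CMDMs. In that order, scaling by 10 leukocyte genes gave 31 and 1, 0 and 29, 20 and 3, 0 and 24, 4 and 4, and 0 and 33. The median log2 fold change of all genes was then 1.715, -0.941, 0.751, -0.636, 0.127 and -1.578, beside -0.013, 0.021, -0.013, 0.003, 0.001 and 0.025 with TMM, and that of the members was 1.61, -1.04, 0.76, -0.64, 0.03 and -1.57. Requiring a log2 size of 1 or more left 4 and 2, 1 and 2, 2 and 3, 0 and 1, 1 and 4, and 0 and 3. Library size only gave 3 and 8, 2 and 13, and 11 lower in the resident-like comparisons. The threshold of 0.01 left 7 lower in late CMDMs against classical monocytes, and 3 and 3 in resident-like macrophages against late CMDMs, where the 6 libraries alone gave 8 higher, beside 2969 of 20856 genes. Counts over all genes were not made for the log2 size of 1 or for the threshold of 0.01. The counts at these settings therefore describe the members only.

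Leaving out 1 library gave 6 to 12 higher and 8 to 13 lower, 3 to 5 and 3 to 7, 7 to 8 and 7 to 14, 3 to 7 and 4 to 7, 3 to 5 and 6 to 10, and 7 to 10 and 6 to 9. For the first comparison, the counts of all genes over the same fits ran from 4756 to 5541 higher and from 3701 to 4624 lower. The other ranges stand without those of all genes and describe the members only. Under leukocyte scaling 18 single log2 differences turned. In early CMDMs against classical monocytes these were Slc2a1 (0.99), Pfkp (1.40), Pkm (1.27), Pgk1 (1.35), Gapdh (1.24), Hif1a (1.09), Vegfa (0.0171), Hilpda (1.04) and P4ha1 (1.2). In late CMDMs against classical monocytes these were Pkm (0.0261), Eno1 (0.30), Ldha (0.44) and Ddit4 (0.21), in late against early CMDMs Bnip3 (-0.21) and Hilpda (-0.17), and in resident-like macrophages Slc2a1 against late CMDMs (-0.0521) and Gpi1 (-1.30) and P4ha1 (-0.96) against early CMDMs. For all genes the split of 5363 higher and 4562 lower in early CMDMs against classical monocytes became 20071 and 466 under leukocyte scaling and 6232 and 3790 under DEGES. The cause of these changes was not tested. With RLE size factors, DESeq2, the filter of 10 counts and no genes over 1% of counts, all 47 single differences kept their call. In the part of the promoter windows nearest the start, 60% of the windows of members and 29.3% of all windows held the motif.

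Same-numbered libraries correlated in their deviations by -0.099 to 0.248 over 18 pairs, with 4 over 0.1. For different-numbered libraries the correlations were -0.215 to 0.171 over 36 pairs, with 1 over 0.1. These values do not settle whether the numbers pair the libraries, and the main fits used no block. With a replicate block, members called numbered 22, 10, 19, 13, 14 and 16 against 19, 10, 19, 10, 11 and 15, and all calls were kept. The calls over all genes rose in each comparison, from 9925 to 10322 in early CMDMs against classical monocytes. With 3 libraries per fraction, a difference near the spread between libraries was not detectable.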
